A study of Homo sapiens with 63 samples.

Results

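The mRNAs of HEK293, a human cell line derived from embryonic kidney, were followed after serum starvation through the lower-numbered side of 1 polysome gradient, by comparing fractions 3 to 7 with fractions 8 to 12. The 10 libraries of these fractions, 5 in each range, were taken by fraction number and condition and are 10 of the 63 samples of the series. The cells had been kept without fetal bovine serum for 2 h, with amino acids still present, and all cultures of the study were given cycloheximide, which holds ribosomes on mRNA, for 10 min before lysis. Poly(A)+ RNA of each fraction was sequenced. Growing (log phase) cells and cells starved of amino acids for 1 h (balanced salts, vitamins and serum only) were each treated the same way on 1 gradient of their own, and their fractions 3 to 12 (10 libraries each) are used below only for values side by side. HEK293 is a single transformed line, and each condition is 1 gradient, so the 5 fractions of a range are neighbouring slices and not replicates. No p-value was computed for that reason, and every SD given is a spread over fractions.

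In a polysome gradient, mRNAs separate by the mass of what is bound to them, from free messenger ribonucleoprotein through single ribosomes to many ribosomes. Whether low or high numbers are the heavy end is not stated in the labels, so positions are given as numbers. The mRNAs of ribosomal proteins and of many translation factors start with a 5′ terminal oligopyrimidine tract (TOP), through which mTORC1 signalling and LARP1 control their translation when growth signals change. Ferritin mRNAs carry an iron-responsive element in the 5′ UTR to which iron regulatory proteins bind, which holds ribosomes off the mRNA. mRNAs with a very short coding sequence have room for few ribosomes, and mRNAs with upstream open reading frames (uORFs) tend to load few ribosomes on the main frame until a stress response is under way.

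Each fraction was set to a total of 1000000 over 11074 genes after the 30 spike-in rows were dropped, so a value is a share of that fraction's gene signal in parts per 1000000 (ppm). Of the deposited signal of the whole gradient, 5.69% lay in fractions 3 to 7, 45.7% in fractions 8 to 12 and 48.6% in fractions 13 to 22. These shares carry the authors' unstated scale for each fraction. Ribosomal protein mRNAs filled 86.0% of fraction 3 and 57.5% of fraction 7, then 79.0% of fraction 8 and 52.3% of fraction 12. The median gene moved the other way, with 0.775, 1.42, 2.04, 3.74 and 7.36 ppm in fractions 3 to 7 and 3.06, 3.34, 5.41, 7.51 and 8.34 in fractions 8 to 12. Fraction 7 therefore stood apart from fraction 8 in both respects. Fraction 3 listed 1679 genes at 0, against 519 to 39 in fractions 4 to 7 and 161 to 11 in fractions 8 to 12. Of the 8 HEK293 markers 6 were in the table and above 0 in all 10 fractions. Among them were VIM (9.95 to 359 ppm), NEFM (25.2 to 454) and the low CDH2 (0.233 to 2.48). PAX2 and LHX1 had no row in the table. None of the 11 markers of blood, liver, endothelium, fibroblasts, pancreas or muscle had a row in it either.

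**Figure D1:**
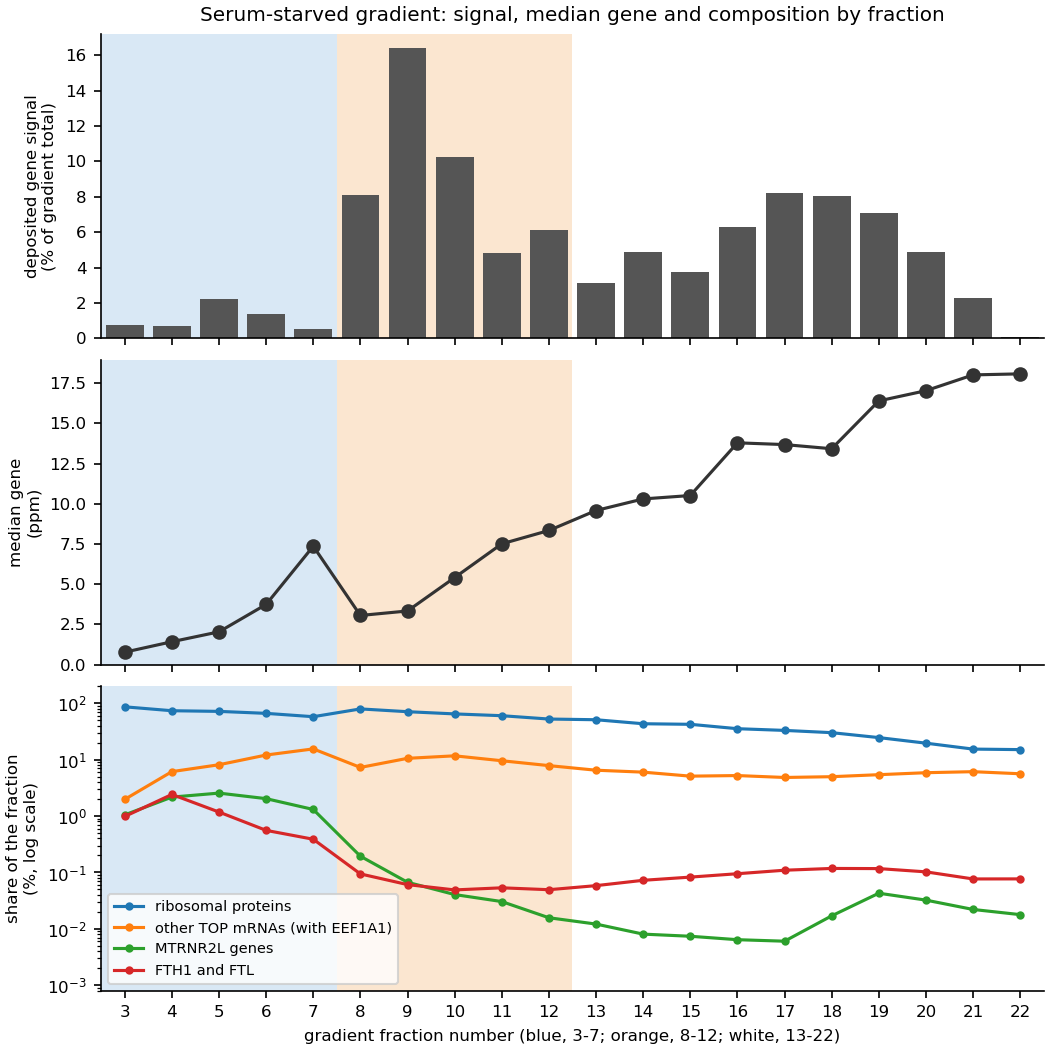
Signal and composition of the 20 fractions of the serum-starved gradient, with the fraction number on the x axis. Bars give the share of the deposited gene signal (% of the gradient), the middle panel the value of the median gene (ppm), and the bottom panel the share of each fraction (%, log scale) held by 4 groups of mRNAs. The median gene climbs to 7.36 ppm in fraction 7 and drops to 3.06 in fraction 8, while the MTRNR2L genes and the ferritins hold more of fractions 3 to 7 than of fractions 8 to 12.

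A gene passed the size rule when its mean log2(value + 1) differed by 1 or more between the ranges and its 5 values in 1 range all lay above its 5 values in the other. Genes needed a mean of 5 ppm over the 10 fractions, which left 5293. Higher in fractions 3 to 7 were 27 genes (0.51% of those compared) and higher in fractions 8 to 12 were 61 genes (1.15%). The genes higher in fractions 3 to 7 were led by near-copies of a mitochondrial rRNA gene, both ferritin chains and a few mRNAs with their highest value in fraction 3, while those higher in fractions 8 to 12 included 4 respiratory chain subunits, 5 other mRNAs with very short coding sequences and 1 TOP mRNA. The median difference over all compared genes, fractions 3 to 7 minus 8 to 12, was -0.93 on the log2 scale. With overlap of the fractions allowed, 47 genes (0.888%) were past the threshold toward fractions 3 to 7 and 2438 (46.1%) toward fractions 8 to 12. Fraction 7 was the highest of the 10 fractions for 1284 of the 5293 genes (24.3%).

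The scaling set how these counts split. Median scaling divided each fraction by a median ratio instead of its total. Each ratio was a gene's value over its own geometric mean across the 10 fractions, for genes above 0 in all of them. The median difference was then -0.029, 62 genes (1.52% of 4087) were higher in fractions 3 to 7 and 36 (0.881%) in fractions 8 to 12. Of the 27 genes 18 passed under both scalings, and of the 61 genes 4 did (ZNF664, EPRS, CRKL and WDR82, of which CRKL and WDR82 are named after their values were seen). All 27 genes but only 51 of the 61 reached the minimum value under median scaling. The rest of the 61 could not pass there, whatever their difference. List medians below are also given relative to the median gene, and values under median scaling stand beside many of the differences. Without fraction 7 the second count was 573, and without fraction 8 it was 603.

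In the amino acid-starved gradient the same rule gave 37 genes (0.8% of 4623) higher in fractions 3 to 7 and 20 (0.433%) higher in 8 to 12, and in the log phase gradient 159 (2.29% of 6951) and 329 (4.73%). The 27 genes higher in fractions 3 to 7 without serum included 23 of the 37 and 25 of the 159. The 61 genes higher in fractions 8 to 12 included 10 of the 20 and 38 of the 329. Only 23 and 25 of the 27 were abundant enough to be compared in those gradients, and all of these passed there. Of the 61 genes, 52 were abundant enough in the amino acid-starved gradient and all 61 in log phase. These are 3 separate gradients, and fraction numbers need not mark the same mass in each.

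The ferritin mRNAs, which encode the heavy (FTH1, chromosome 11, 61964285 to 61967634 in GRCh38.p14) and light chain (FTL, chromosome 19, 48965309 to 48966879) of the iron storage shell, had their highest values in fraction 4. FTL stood at 5192, 8387, 3938, 1858 and 1341 ppm in fractions 3 to 7 and 311, 189, 135, 157 and 137 in fractions 8 to 12. FTH1 stood at 4629, 15725, 7822, 3712 and 2537 ppm in fractions 3 to 7 and 632, 421, 356, 378 and 358 in fractions 8 to 12. In both mRNAs all 5 values of fractions 3 to 7 lay above all 5 of fractions 8 to 12, with the lowest of the first 4.31 times the highest of the second for FTL and 4.02 times for FTH1. On the log2 scale FTL was at 11.71 ± 1.08 against 7.47 ± 0.50 (SD, n = 5 fractions each), a difference of 4.24 or 18.9-fold, and FTH1 at 12.44 ± 1.02 against 8.71 ± 0.35, a difference of 3.73 or 13.3-fold. Differences were 5.23 and 4.72 under median scaling, 4.50 and 4.23 in the amino acid-starved gradient, and 5.20 and 4.77 in log phase. The later fractions, 13 to 22, held 28.8% of the deposited FTL signal and 37.6% of that of FTH1, against a median of 74.3% over all compared genes. The other 11 compared mRNAs of the iron and polyamine list all had negative differences under the total scaling, among them the iron-regulated transferrin receptor TFRC, whose elements lie in the 3′ UTR, at -0.31 (0.53 under median scaling). The median of all compared genes was itself negative, at -0.93, and 7 of the 13 list members, both ferritins included, lay above it.

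The light chain mRNA is shown because its start region holds the loop pattern CNNNNNCAGTGN of an iron-responsive element, which the capitals mark. The whole printed stretch is bases 23 to 50 after the annotated start (chr19:48965331-48965358 on the plus strand, RefSeq, GRCh38.p14).
FTL: ctgtctcttgCTTCAACAGTGTttggac
The pattern is short, and 10.1% of the 35116 start windows of 300 bases in the RefSeq table hold it on the printed strand and 9.37% on the other. Within the 50 bases after the start it is found in 1.67% of them. A match is only a match of letters.

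BEST1, which encodes the chloride channel bestrophin-1, also passed, with a difference of 3.60 and values of 57.1, 133, 54.7, 29.4 and 16.9 ppm in fractions 3 to 7 and 4.46, 3.23, 2.49, 3.15 and 1.67 in fractions 8 to 12. Its annotated span (chromosome 11, 61949821 to 61965515) overlaps that of FTH1 by 1231 bases, and its profile also had its highest value in fraction 4, so its value is uncertain. It was under the minimum value in both other gradients, where its differences were 1.32 without amino acids and 1.06 in log phase.

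The 5 MTRNR2L genes in the table are nuclear near-copies of the mitochondrial 16S rRNA gene that holds the humanin reading frame, so reads from mitochondrial rRNA may be counted on them and their values are uncertain. MTRNR2L8 had values of 5956, 14746, 15232, 12238 and 7891 ppm in fractions 3 to 7 and 1133, 393, 251, 181 and 102 in fractions 8 to 12. MTRNR2L1 had 3941, 5336, 6875, 5347 and 3440 ppm in fractions 3 to 7 and 537, 186, 104, 83.8 and 36.7 in fractions 8 to 12. Both were highest in fraction 5 and lowest in fraction 12, with no overlap. The differences were 5.25 for MTRNR2L1, 5.17 for MTRNR2L8, 4.80 for MTRNR2L6 and 4.60 for MTRNR2L10. MTRNR2L4 was at 4.46 but did not pass, because its value in fraction 3 (122) lay under that in fraction 8 (136). Under median scaling all 5 passed, MTRNR2L4 at 5.37. Together the 5 genes held 1.05% to 2.55% of each of fractions 3 to 7, 0.194% of fraction 8 and 0.0158% of fraction 12. Their median difference was 4.80, against -0.93 over all genes.

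A further set had its highest value in fraction 3 and lost signal in each fraction up to fraction 7. SEMA3E, a secreted semaphorin (chromosome 7, 83363238 to 83649139), had values of 708, 248, 95.8, 34.7 and 15.5 ppm in fractions 3 to 7 and 5.18, 0.686, 2.70, 0.994 and 1.39 in fractions 8 to 12. BCDIN3D, an RNA methyltransferase (chromosome 12, 49836043 to 49843106), had 1150, 378, 116, 64.1 and 54.0 ppm in fractions 3 to 7 and 25.4, 14.0, 13.3, 11.1 and 16.0 in fractions 8 to 12. CCL5, a chemokine (chromosome 17, 35871491 to 35880360), had 229, 81.8, 27.5, 11.5 and 7.18 ppm in fractions 3 to 7 and 2.11, 1.04, 0.753, 0.197 and 0.529 in fractions 8 to 12. In each the first range lay wholly above the second, with most of the signal of the range in fractions 3 and 4. The differences were 5.14 for SEMA3E, 4.28 for CCL5 and 3.45 for BCDIN3D. The vesicle GTPase RAB3B (3.04, from 172 in fraction 3 to 8.48 in fraction 7 and at most 4.10 after it) and the F-box protein FBXO48 (2.85, from 178 to 7.99 and at most 4.60 after it) had the same form. Without fractions 3 and 4 the differences were 3.76 for SEMA3E, 2.97 for CCL5 and 2.19 for BCDIN3D. All 5 genes passed in both other gradients as well, with log phase differences of 7.09 for SEMA3E, 6.39 for CCL5 and 4.58 for BCDIN3D. BCDIN3D, RAB3B and FBXO48 overlapped between ranges under median scaling, where their differences were 4.36, 3.73 and 3.61. An annotated noncoding RNA overlaps the span of SEMA3E, of CCL5 and of BCDIN3D, and the annotated pseudogenes RNA5SP48 and RPS26P14 overlap that of RAB3B.

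**Figure D2:**
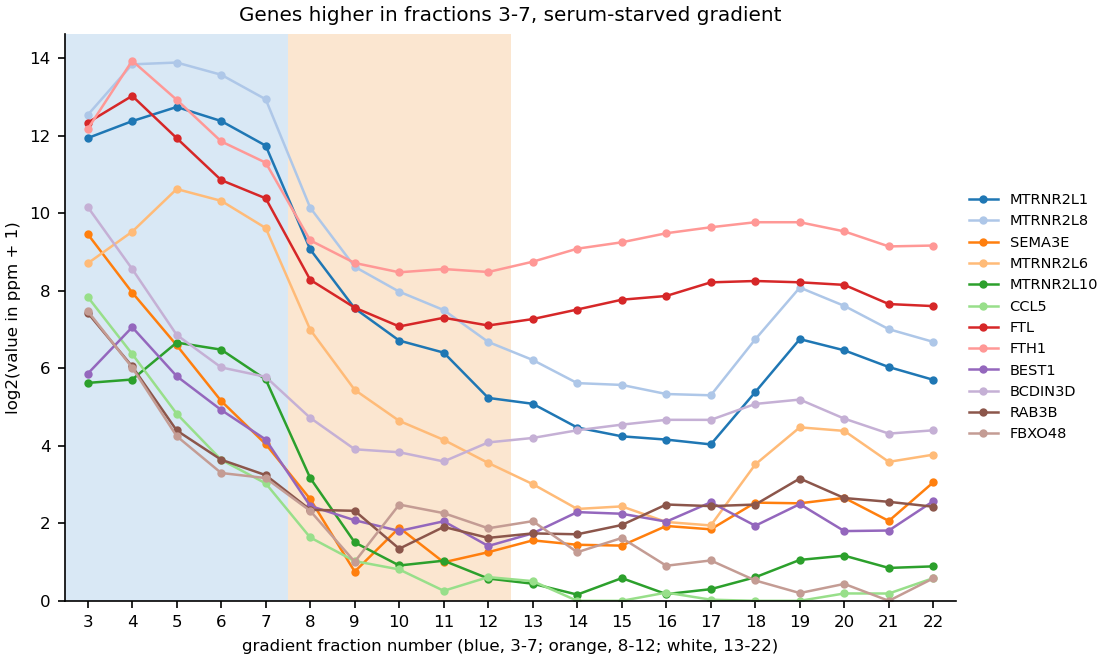
Profiles of the 12 genes with the largest differences toward fractions 3 to 7 and a mean of 20 ppm or more, as log2(value in ppm + 1) against fraction number in the serum-starved gradient, 1 point per library. Each line lies higher in all of fractions 3 to 7 (blue) than in fractions 8 to 12 (orange), with SEMA3E, BCDIN3D, CCL5, RAB3B and FBXO48 highest in fraction 3, the ferritins and BEST1 in fraction 4 and the 4 MTRNR2L genes in fraction 5.

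Of all 27 genes, 11 had their highest value in fraction 3, 9 in fraction 4, 5 in fraction 5, none in fraction 6 and 2 in fraction 7. RPSA, a small ribosomal subunit protein (chromosome 3, 39406720 to 39412542), was the only ribosomal protein mRNA among the 27, at 10396, 27770, 17448, 12284 and 9507 ppm in fractions 3 to 7 and 6250, 6699, 6196, 5373 and 4547 in fractions 8 to 12. Its difference of 1.31 rested on no overlap between 9507 in fraction 7 and 6699 in fraction 9, and under median scaling (difference 2.30) the ranges overlapped. The same mRNA passed without amino acids (1.22) and in log phase (2.74). Of 86 compared C2H2 zinc finger genes with a ZNF symbol, only ZNF80 passed in this direction, at 2.02, against 0.51% of all compared genes.

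Among the 61 genes higher in fractions 8 to 12, 42 were highest in fraction 12, 13 in fraction 11 and 6 in fractions 9 or 10. UQCR11, a small subunit of respiratory complex III (chromosome 19, 1597169 to 1605462), stood at 193, 99.3, 54.2, 41.5 and 38.1 ppm in fractions 3 to 7 and 217, 223, 207, 447 and 683 in fractions 8 to 12, a difference of -2.15 (6.15 ± 0.97 against 8.30 ± 0.77, SD, n = 5 fractions each). RBX1, the RING subunit of cullin ubiquitin ligases (chromosome 22, 40951378 to 40973309), stood at 223, 169, 88.9, 76.0 and 73.2 ppm in fractions 3 to 7 and 309, 398, 385, 454 and 496 in fractions 8 to 12, a difference of -1.82. SNRPG, the Sm protein G of the spliceosome (chromosome 2, 70281362 to 70293740), stood at 225, 187, 102, 74.0 and 52.0 ppm in fractions 3 to 7 and 232, 249, 284, 413 and 700.5 in fractions 8 to 12, a difference of -1.62. Each of these 3 mRNAs was lower in fraction 7 than in fraction 3, and the lowest value of fractions 8 to 12 was 1.07 times the highest of fractions 3 to 7 for UQCR11, 1.38 times for RBX1 and 1.03 times for SNRPG. RPA3, the smallest subunit of replication protein A (-1.68), and C4orf3 (-1.64) had the same form. Over all compared genes the opposite was usual, with a median log2 change of 2.74 from fraction 3 to fraction 7 and 4319 of 5293 genes higher by 1 or more in fraction 7, against 20 of these 61. The rule leaves out genes whose fraction 7 lies above any of fractions 8 to 12, so this contrast is partly set by the rule.

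The 12 largest differences in this direction were taken among genes with a mean of 20 ppm or more. The rest of these 12 were ZNF664 (-2.61), EPRS (-2.35), AC087632.1 (-1.92), TMEM167A (-1.88), the cytochrome c oxidase assembly factor COA1 (-1.80), the tRNA splicing endonuclease subunit TSEN15 (-1.70) and the mitochondrial ribosome protein CHCHD1 (-1.69). ZNF664, a C2H2 zinc finger protein (chromosome 12, 123973215 to 124015427), had values of 2.45, 3.27, 3.95, 4.38 and 13.0 ppm in fractions 3 to 7 and 18.3, 25.2, 27.4, 57.7 and 53.8 in fractions 8 to 12. EPRS, the glutamyl-prolyl-tRNA synthetase (chromosome 1, 219968600 to 220046505), had 5.94, 6.58, 8.80, 7.17 and 25.4 ppm in fractions 3 to 7 and 25.9, 31.6, 47.1, 119.8 and 75.4 in fractions 8 to 12. Unlike the 5 mRNAs above, both were lowest in fraction 3 and highest in fraction 11, and both passed under median scaling (-1.69 and -1.40), where the remaining 10 of the 12 did not (from -1.15 for UQCR11 to -0.62 for SNRPG). ZNF664 also passed in the other gradients (-1.65 without amino acids, -2.03 in log phase), while EPRS did not and was at -1.58 and 0.55. The span of ZNF664 lies within that of the annotated readthrough gene ZNF664-RFLNA, and the spans of COA1 and RPA3 overlap STK17A and UMAD1, so reads may be shared between them.

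**Figure D3:**
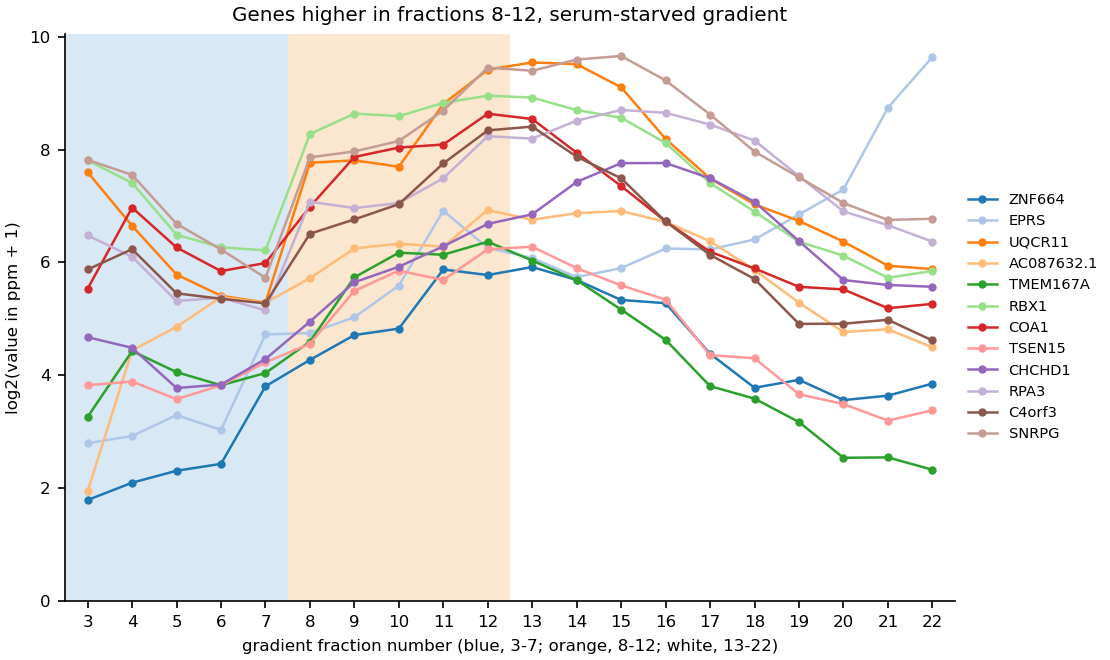
Profiles of the 12 genes with the largest differences toward fractions 8 to 12 and a mean of 20 ppm or more, as log2(value in ppm + 1) against fraction number in the serum-starved gradient, 1 point per library. UQCR11, RBX1, RPA3, C4orf3 and SNRPG are lowest in fraction 7 among fractions 3 to 12, and ZNF664 and EPRS in fraction 3.

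Gene lists by coding length and by mitochondrial function were counted next. Of 49 compared mRNAs with a very short non-ribosomal coding sequence 5 passed toward fractions 8 to 12 (SNRPG, TMSB15A, LSM3, TOMM6 and LSM7) and none toward 3 to 7, against 1.15% and 0.51% of all genes. Their median difference was -1.16, which was -0.23 relative to the median gene, and every member was below 0 under this scaling, from -1.90 for USMG5 to -0.38 for C14orf2, whose sign turned under median scaling (0.61). Relative to the median gene the list median was 0.096 without fraction 7. Of 74 respiratory chain subunits 4 passed toward fractions 8 to 12 (UQCR11, UQCR10, ATP5J2 and NDUFA13), with a list median of -0.81, 0.13 relative to the median gene (-0.19 with values as deposited and -0.58 without fractions 3 and 4). Under median scaling none of these 9 mRNAs passed, and no other member of either list did. None of 77 mitochondrial ribosomal protein mRNAs with an MRPL or MRPS symbol passed, with a median of -0.65, 0.29 relative to the median gene (-0.026 with values as deposited). CHCHD1, which passed toward fractions 8 to 12 at -1.69, is not in that list. The very long coding sequences lay on the other side, with 8 of 52 members abundant enough, none past the rule, a median of 0.13 and all 8 above the median gene. Under median scaling 3 of 7 passed toward fractions 3 to 7, against 1.52% of all 4087 genes compared under that scaling. They were PRKDC at 1.48, HUWE1 at 1.45 and USP9X at 1.22. The minimum value was a mean over the same fractions that the rule compared, so the 7 need not stand for the list.

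The mRNAs of the translation machinery differed among themselves. The 51 large subunit protein mRNAs had a median difference of -0.015 and the 33 small subunit ones 0.071, which was 0.92 and 1.01 relative to the median gene, and 48 of the 51 and 33 of the 33 lay above it. None of the 51 passed in either direction and 1 of the 33 (RPSA) did. The 35 other TOP mRNAs had a median of -1.10, -0.16 relative to the median gene, with 1 of 35 (EIF3K) past the rule toward fractions 8 to 12. Their median relative to all genes was 0.36 without fractions 3 and 4 and 0.22 without fraction 3 alone. Under median scaling EIF3K did not pass and IPO7, a nuclear import receptor, did, at -1.26. They spread from -3.32 for EIF4B, which stimulates the unwinding of mRNA 5′ ends, to 0.65 for TPT1, the translationally controlled tumour protein. Medians relative to all genes were 0.47 (large subunit), 0.52 (small subunit) and -0.33 (other TOP) in the amino acid-starved gradient and 0.18, 0.39 and 0.094 in log phase.

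The starts of 6 of these mRNAs are shown because they carry the same kind of tract and had different profiles. Each line gives the 5 bases before and the 20 after the annotated start, with the first C and the pyrimidines that follow it in capitals (RefSeq, GRCh38.p14).
EEF1A1: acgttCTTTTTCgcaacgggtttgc
EEF2: gcgttCTCTTCCgccgtcgtcgccg
RPS6: tggccCTCTTTTCCgtggcgcctcg
RPSA: cctgtCTTTTCCgtgctacctgcag
RPL41: cctttCTCTCggccttagcgccatt
EIF3K: accacCTCTTCCTgttcccgtcctt
They lie at chr6:73521013-73521037 on the minus strand (EEF1A1), chr19:3985444-3985468 on the minus strand (EEF2), chr9:19380217-19380241 on the minus strand (RPS6), chr3:39406715-39406739 on the plus strand (RPSA), chr12:56116628-56116652 on the plus strand (RPL41) and chr19:38619183-38619207 on the plus strand (EIF3K). A C followed by pyrimidines over at least 5 bases stood at the annotated start of 4.07% of the 35116 windows. Among the 41 large subunit mRNAs that matched the table, 26 had such a run and a median difference of -0.06, and 15 did not and had 0.03. Among the small subunit mRNAs 18 had such a run (median 0.07) and 8 did not (-0.10), and both groups of the other TOP mRNAs, 18 with a run and 9 without, had -0.98.

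EEF1A1, the elongation factor that brings tRNA to the ribosome (chromosome 6, 73515750 to 73521032), had values of 202, 8295, 32272, 55311 and 80313 ppm in fractions 3 to 7 and 27471, 45516, 55044, 40357 and 30393 in fractions 8 to 12. EEF2, which moves the ribosome along the mRNA (chromosome 19, 3976056 to 3985463), had 23.6, 32.8, 242, 2258 and 5835 ppm in fractions 3 to 7 and 1903, 2481, 3840, 4292 and 2580 in fractions 8 to 12. PABPC1, the cytoplasmic poly(A)-binding protein, had 8.26, 17.7, 88.0, 1320 and 2771 ppm in fractions 3 to 7 and 605, 511, 665, 602 and 285 in fractions 8 to 12. All 3 increased from fraction 3 to their highest value in fraction 7, and fraction 7 then lay above every one of fractions 8 to 12, so that none passed the rule in spite of differences of -1.69, -3.24 and -1.86 (-0.70, -2.26 and -0.90 under median scaling). Without fractions 7 and 8 EEF2 passed, at -4.46. Without fractions 3 and 4 the signs of EEF1A1 (0.44) and PABPC1 (0.42) turned, and EEF2 was at -0.97. Without amino acids the differences were -1.72 for EEF1A1, -3.04 for EEF2 and -1.28 for PABPC1, and in log phase -0.39, -0.63 and 0.86. The difference between gradients was not tested, since there was 1 of each. RPL4, a large subunit protein, had the EEF1A1 form, with 94.8, 5088, 8269, 13531 and 18151 ppm in fractions 3 to 7 and 6876, 12120, 12569, 10670 and 7321 in fractions 8 to 12 and a difference of -1.27 (-0.28 under median scaling and 0.40 without fractions 3 and 4).

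RPS6, the small subunit protein that is phosphorylated downstream of mTORC1, varied little beyond fraction 3, with 2582, 6362, 5334, 6219 and 5643 ppm in fractions 3 to 7 and 5070, 5760, 5909, 5513 and 4884 in fractions 8 to 12 and a difference of -0.12 (0.88 under median scaling and 0.08 without fractions 3 and 4). RPL41, the shortest ribosomal protein, had the opposite form to RPL4, with 15232, 9852, 8995, 7444 and 6570 ppm in fractions 3 to 7 and 20004, 18288, 15839, 15460 and 13840 in fractions 8 to 12 and a difference of -0.85 (0.15 under median scaling, and past the rule at -1.03 without fraction 3). TPT1 (0.65) and the ribosomal scaffold RACK1 (0.37) had their highest values in fraction 4, as RPSA did. EIF3K, a subunit of the initiation factor eIF3, had a difference of -1.08 and, under median scaling, -0.09 with no call. It also fell short of the threshold without fraction 4, 11 or 12, at -0.98, -0.98 and -0.99. The 28 compared translation factors without a TOP tract had a median of -0.88, 0.05 relative to the median gene (-0.17 with values as deposited), with none past the rule, from -2.21 for the cap-binding EIF4E to 0.27 for EIF2S1.

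**Figure D4:**
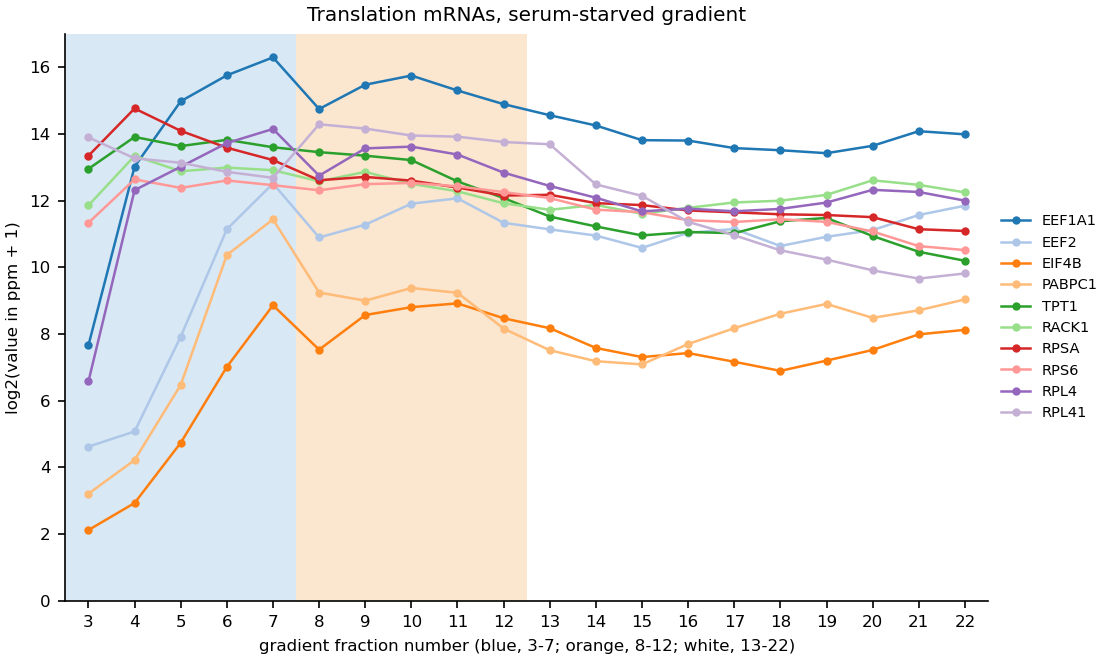
Profiles of 10 mRNAs of the translation machinery, as log2(value in ppm + 1) against fraction number in the serum-starved gradient, 1 point per library. EEF1A1, EEF2, EIF4B, PABPC1 and RPL4 climb steeply through fractions 3 to 7 (blue) and are lower in fraction 8, RPL41 goes down through the same fractions and is higher in fraction 8, and RPS6 stays between 2582 and 6362 ppm over fractions 3 to 12.

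The 12 compared uORF-regulated mRNAs had a median of -1.79, -0.85 relative to the median gene, with 10 of 12 below it and 1 past the rule (EPRS). Under median scaling PPP1R15B passed as well. ATF4, the transcription factor of the integrated stress response, had 13.0, 402, 1045, 1713 and 2904 ppm in fractions 3 to 7 and 1036, 1603, 1696, 1926 and 2112 in fractions 8 to 12 and a difference of -1.72 (0.089 without fractions 3 and 4). DDIT3, its target that promotes apoptosis, had 1.46, 11.7, 9.17, 8.56 and 15.4 ppm in fractions 3 to 7 and 10.1, 18.1, 17.7, 23.0 and 36.5 in fractions 8 to 12 and a difference of -1.23. Both overlapped between ranges, DDIT3 only through fraction 8, without which it passed at -1.45. PPP1R15B, a subunit of the phosphatase that reverses eIF2 phosphorylation, was the lowest of the list at -2.74 (-2.15 under median scaling).

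Of 25 immediate early genes, which serum induces, 11 were abundant enough and none passed (median -1.11, -0.18 relative to the median gene). The latter was 0.16 with values as deposited and 0.26 without fractions 3 and 4. EGR1 and FOS were under the minimum, with at most 8.63 and 5.19 ppm, both in fraction 7. MYC had 9.50, 19.5, 55.5, 262 and 568 ppm in fractions 3 to 7 and 182, 172, 225, 304 and 248 in fractions 8 to 12, a difference of -1.64. JUN had 6.65, 9.47, 8.16, 26.5 and 174 ppm in fractions 3 to 7 and 76.3, 72.3, 63.1, 71.8 and 39.1 in fractions 8 to 12, a difference of -1.65. Both were highest in fraction 7. Without that fraction JUN passed toward fractions 8 to 12, at -2.42. In the polyamine pathway, the synthetic enzymes ODC1 (-1.45) and AMD1 (-2.39) and the antizyme OAZ1 (-1.05), which needs a ribosomal frameshift, were all below 0 without passing. Under median scaling they were at -0.50, -1.50 and -0.052, and AMD1 passed. Without fractions 3 and 4 ODC1 was at 0.48. OAZ1 went from 347 ppm in fraction 8 to 2644 in fraction 12.

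None of the remaining lists had more than 1 member past the rule in either direction, apart from the 3 of 86 zinc finger genes higher in fractions 8 to 12 (ZNF589, ZNF664 and ZNF592). That list takes genes by a ZNF symbol, so ZBTB5 (-2.86) and ZFP62 (-1.29), which also passed in that direction, are not in it. Over all compared genes 1.15% passed in that direction. The zinc finger list lay at 0.016 relative to the median gene, with 43 of 86 members above it. Under median scaling ZNF664 was the only one of these 3 to pass, and the additional passes in these lists were ZNF891 (1.87), the glycolytic enzyme ENO1 (1.29) and IRS2 (1.52) toward fractions 3 to 7 and the helicase DDX21 (-1.17) and the zinc transporter SLC39A7 (-1.01) toward fractions 8 to 12. The 8 subunits of the TRiC chaperonin, which folds actin and tubulin, had a median of -1.58, -0.65 relative to the median gene. That list stood at 0.37 without fractions 3 and 4, and at -0.61 and 0.46 in the amino acid-starved and log phase gradients. The hnRNP family was at -0.35 relative to the median gene, led by HNRNPA1 (-2.09), and at 0.24 when mean values were compared before taking log2. Glycolysis enzymes were at 0.38, with GAPDH the highest at 0.99 and its highest value, 10649, in fraction 4, and it passed toward fractions 3 to 7 without fraction 3, at 1.29. Heat shock chaperones (0.052), mTORC1 components (-0.037) and solute carriers (0.037) lay near the median gene, and each of these 3 medians changed sign under at least 1 alternative. LARP1 itself was at -0.046, and ACTB, HSPA8, LDHB, OTUB1, EXOSC3 and ARF4 were at -0.095, -2.17, -0.98, -1.29, -2.02 and -0.21, none of them past the rule. Under median scaling the signs of LARP1 (0.74), ACTB (0.89), LDHB (0.012) and ARF4 (0.62) turned, and without fractions 3 and 4 those of LARP1, ACTB and ARF4 (0.49, 0.83 and 0.51). OTUB1 passed without fraction 7 (-1.56) and EXOSC3 without fraction 8 (-2.60).

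**Figure D5:**
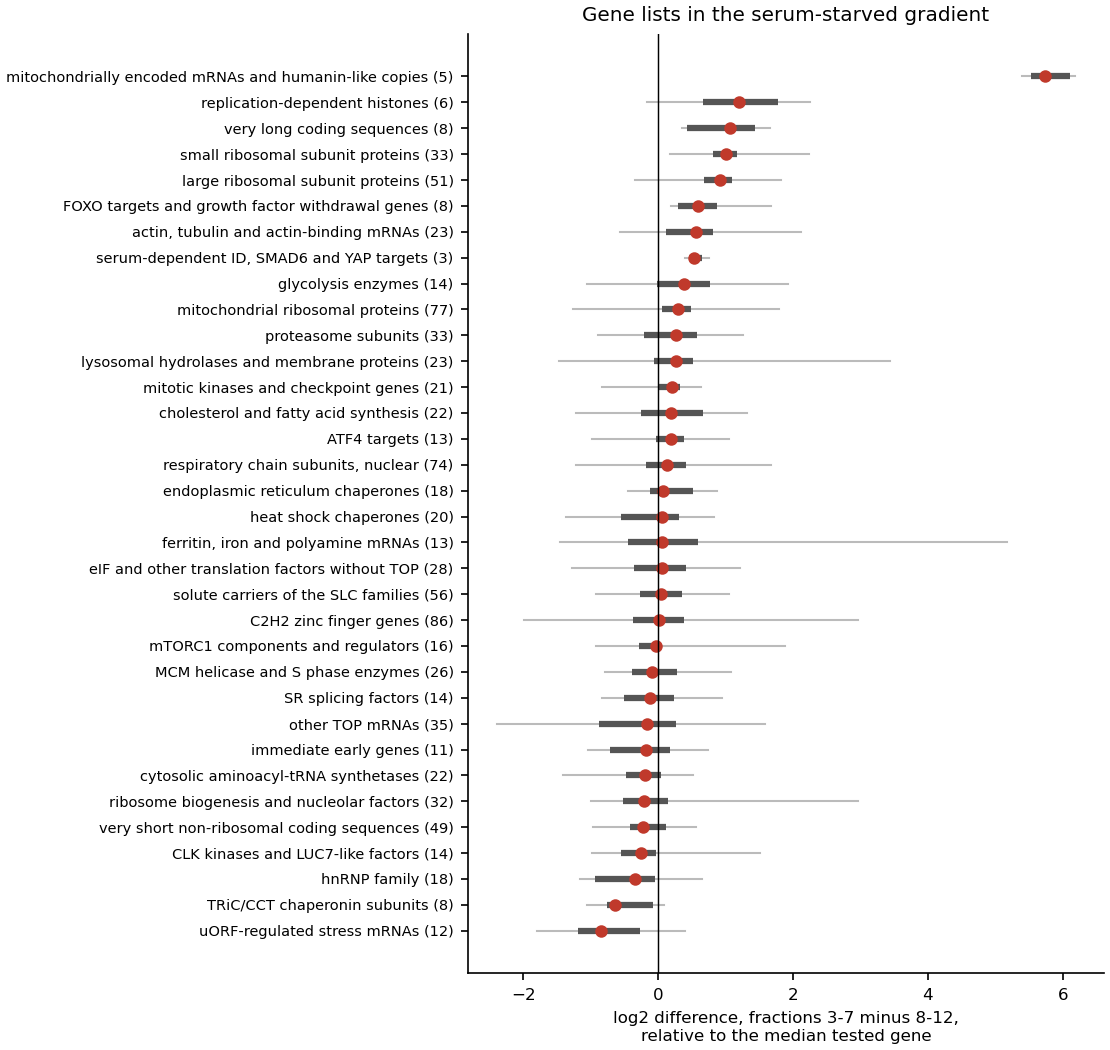
Differences of 34 gene lists between fractions 3 to 7 and 8 to 12 of the serum-starved gradient, as log2 values from which the median compared gene was subtracted. Dots are list medians, dark bars the middle quartiles, grey lines the lowest and highest member, with the number of compared members in brackets. The MTRNR2L genes lie far to the right at 5.74, ribosomal proteins near 1 and uORF-regulated mRNAs lowest at -0.85.

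Fractions 13 to 22 were not used by the rule, but their share is taken of the whole gradient, fractions 3 to 12 included. High values in the fractions that the rule used lower this share, so it is no separate check of the genes past the rule. Fractions 13 to 22 held a median of 36.0% of the deposited signal of the 27 genes higher in fractions 3 to 7 and 49.3% of that of the 61 genes higher in fractions 8 to 12, against 74.3% over all compared genes, and 15.1%, 57.4% and 76.3% with the rescaled values. For ribosomal protein mRNAs the medians were 33.6% (large subunit) and 31.0% (small subunit) and for other TOP mRNAs 49.2%. The annotated gene span, introns included, had a median of 8870 bases for the 27 genes and 12538 for the 61, against 21047 over all. Start windows were found for 50 of the 61, with a median GC content of 65.3%, the same as over all compared genes. Only 15 of the 27 had a window, too few for that check, which is void for them.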

How the data were processed

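Poly(A)+ RNA of gradient fractions was sequenced in 75 nt reads. The submitters' processing notes name kallisto 0.44.0, sleuth 0.29.0 and hg38. The authors deposited a signal table with 1 value per gene symbol and fraction, named TPM, whose columns do not share 1 total. The sources used here give neither the scale per fraction nor the depth, so no counting error is attached. The 3 lysates were not analysed here. Each fraction was rescaled to 1000000 over 11074 genes without 30 spike-in rows. Genes with a mean of 5 or more were compared on log2(value + 1), which understates changes of low genes. The size rule is a difference of 1 with no overlap and is not a test. The members, lists and rules were chosen with earlier results of these data known. Named genes were the 12 largest differences in each direction at a mean of 20 or more, the most abundant and most extreme member of each list, and a fixed set. Other genes past the rule under either scaling, and TFRC and TUBA1C, were named after their values were seen. Symbols were matched to RefSeq GRCh38.p14 (33 unmatched). The comparison was run on simulated flat profiles with independent noise. The real fractions are ordered and trending, so that run checks the code and not the rule on such profiles. Python 3.11.15, pandas 2.3.3 and numpy 2.4.6 were used.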

Additional observations from a re-analysis of the deposited data

Results flagged for a closer look

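For 49 named genes, both ranges were looked at for a fraction far from the other 4 (a gap over 0.71 of the whole range on the log2 scale). In 8 of 98 cases a fraction stood apart, against about 1 in 20 by chance, and since the fractions are ordered slices a steep profile can also give such a gap. Fraction 3 was the low one in 5 cases: RPL4 at 94.8 ppm, LDHB at 52.2, RPS6 at 2582, AC087632.1 at 2.84 and DDIT3 at 1.46. EPRS stood apart through its high value in fraction 7, 25.4 ppm. LDHB was also low in fraction 8, at 564.0 ppm, and JUN in fraction 12, at 39.1.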

How the results depend on the processing

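Of 23 alternatives, the count of genes higher in fractions 3 to 7 (27) stayed within 1.5 times in 16 and the count higher in fractions 8 to 12 (61) in 10. The counts were 62 and 36 with median scaling (median difference of all genes -0.029), 0 and 9689 with values as deposited (-3.68), where the differences of RPSA and RACK1 turned to -1.77 and -2.71, 13 and 35 at a mean of 20 or more, 47 and 2438 with overlap allowed, and 84 and 270 without fractions 3 and 4, an alternative added after seeing the data. The second count was 118 with no filter, 1645 without fractions 7 and 8 and 696 with odd-numbered fractions, and even-numbered fractions gave 57 and 801. Leaving out each fraction in turn gave 25 to 53 and 52 to 603, the first highest without fraction 3 and the second highest without fractions 7 (573) or 8, and above 61 by over 1.5 times also without fraction 3 (108) or 4 (102). List medians relative to all genes moved by more than their spread over fractions in 25 of 714 recomputations. For uORF-regulated mRNAs they were -0.53 from log2 of mean values, -1.24 without fractions 7 and 8, -0.56 without fractions 3 and 4, and -1.16 to -0.51 leaving out 1 fraction. For FOXO targets they were 0.37 (pseudocount 0.1), 0.31 (no filter), 0.83 (mean of 20), 0.95 (median scaling), 0.84 (without fractions 7 and 8) and 0.54 to 1.05 leaving out 1 fraction. The sign relative to all genes turned under at least 1 alternative for 21 of the 34 lists. These included other TOP mRNAs (up to 0.36), respiratory chain subunits (down to -0.58), very short coding sequences (up to 0.096), immediate early genes (up to 0.39), mitochondrial ribosomal proteins (down to -0.068) and translation factors without TOP (down to -0.17). By more than the spread over fractions, signs turned for SR factors (0.27 from log2 of means, 0.21 without fractions 3 and 4), hnRNPs (0.24 from log2 of means), TRiC (0.37), aminoacyl-tRNA synthetases (0.12) and zinc finger genes (-0.23) without fractions 3 and 4, heat shock chaperones (-0.25, even-numbered), and endoplasmic reticulum chaperones (-0.19 with no filter, -0.23 as deposited). Values as deposited also gave -0.54 for the synthetases, -0.44 for SR factors and -0.37 for S phase genes, a mean of 20 gave 0.41 for very long coding sequences, and leaving out fractions 3 and 4 gave 1.01 for serum-dependent genes. The causes of these moves were not tested. No paired analysis was possible because the 2 ranges share no replicate pairs. Depth is unknown, so low values carry no error.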

Other observations

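A few mRNAs outside the main groups stood toward fractions 3 to 7 without passing the rule. TUBA1B, an alpha-tubulin, had 43.8, 1926, 3666, 2778 and 1836 ppm in fractions 3 to 7 and 439.8, 423, 459, 455 and 699 in fractions 8 to 12 and a difference of 1.18, while the other tubulin and actin mRNAs compared lay at or under the 0.24 of TUBA1C. The actin, tubulin and actin-binding list had a median of -0.38, 0.56 relative to the median gene. IDS, a lysosomal sulfatase, had 12.9, 242, 333, 260.2 and 199 ppm in fractions 3 to 7 and 45.8, 22.4, 31.5, 15.5 and 16.3 in fractions 8 to 12, a difference of 2.50, 10.1% of its deposited signal in fractions 13 to 22, and differences of 2.99 without amino acids and 3.88 in log phase. It did not pass because fraction 3 (12.9) lay under fractions 8 to 12. Only 6 of 19 replication-dependent histone mRNAs were abundant enough in this poly(A)+ RNA, with a median of 0.26 and none past the rule.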
